A study of Rattus norvegicus with 6 samples.

Results

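Mast cells make, store and take up histamine and serotonin, and 10 genes of this pathway were followed in a stimulated mast cell line: Tph1, Hdc, Ddc and Gch1 for synthesis, Slc18a2 and Srgn for storage, Slc6a4 for uptake, and Maoa, Maob and Hnmt for breakdown. Each gene was read from the probe set that the platform annotation assigns to that symbol alone. All 10 were on the array, of 14506 genes named in this way, and each had 1 such probe set. The genes were chosen by their role in the pathway, with earlier results of these data known. The cells were RBL-2H3, a rat basophilic leukaemia line used as a mast cell model, and every sample overexpressed wild-type Dectin-1, which binds beta-glucans at the cell surface. Of the 3 groups, with 2 arrays each, one was pretreated with the Syk inhibitor R406 and then stimulated with curdlan, a particulate beta-glucan. Another was stimulated with curdlan alone, and the last was an unstimulated control. Doses, times of exposure and whether the line was a single clone were not given in the sources used here, and there was no group given R406 alone.

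Histamine is made in a single step, the decarboxylation of histidine by Hdc. Serotonin takes a pair of steps: Tph1 hydroxylates tryptophan, with tetrahydrobiopterin as cofactor, and Ddc decarboxylates the product. Both amines are loaded into granules by Slc18a2, in exchange for protons, and are held there by the acidic sugar chains of serglycin, the product of Srgn. In rodent mast cells both amines are granule contents released on degranulation.

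Signals are on the log2 scale, as the authors processed them, with array medians of 7.20 to 7.24. Changes are differences of group means, first group minus second, with the standard error (SE) of a limma fit of all 6 arrays, and a gene was called where p was under 0.05 after Benjamini-Hochberg adjustment across the 29214 probe sets. The labels do not say whether replicate arrays stand for independent cultures, and the p-values then measure only an array-to-array spread that may be technical. No detection call was used here, and signals of different probe sets were not compared as transcript levels, since probes differ in brightness. Of 12 mast cell markers 10 were measured and 9 lay above the median signal of all probe sets, among them Ms4a2 at 13.52 and Cpa3 at 13.48, while the tryptase gene Tpsab1 lay at 6.14. None of the mast cell markers was called in any comparison (lowest adjusted p = 0.0971). Of 6 lymphocyte markers measured, all lay below the median signal, as did 5 of 6 macrophage markers and 5 of 6 markers of serotonergic neurons and enterochromaffin cells, including Tph2 at 5.55, and 4 of 7 fibroblast and epithelial markers. None of these was called. Platelets also carry serotonin, and of 4 platelet markers measured 3 lay above the median, with Pf4 at 11.72 and Ppbp at 12.67. Ppbp, which encodes a platelet chemokine precursor, was the only marker called.

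Tph1, which encodes the rate-limiting enzyme of serotonin synthesis outside the brain, was the single gene of the 10 that passed the test, in both comparisons that involve curdlan. Its signal (probe set 10722097) was 6.44 and 6.43 on the R406 plus curdlan arrays, 7.08 and 7.18 on the curdlan arrays, and 6.31 and 6.50 on the control arrays. Both curdlan arrays lay above the other 4, and the R406 plus curdlan arrays lay between the control arrays. Every one of these signals was below the median of its array, and whether the transcript was detected at all is not known here. With curdlan Tph1 rose by 0.72 ± 0.0792 log2 units against control, a 1.65-fold difference (95% confidence interval 1.44 to 1.90; limma adjusted p = 0.0295). Under R406 it fell by 0.69 ± 0.0792 against curdlan alone, which is 1.61-fold lower (adjusted p = 0.0123). Between R406 plus curdlan and control the difference was 0.033 ± 0.0792 (adjusted p = 0.856), with a 95% interval of -0.17 to 0.23. The comparisons share arrays, so these values are not independent of each other. Less of the transcript per cell and fewer cells that carry it cannot be told apart in bulk RNA. Nor can an action of R406 on the curdlan response be told apart from an action of R406 by itself, since R406 alone was not measured.

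The Tph1 calls were not all kept when an array was left out. Without any 1 of the 6 arrays the curdlan difference lay between 0.63 and 0.82 and was not called (adjusted p 0.0844 to 0.165). The R406 difference was called without either control array, but not without curdlan replicate 1 (adjusted p = 0.0602) or 2 (0.0687) or R406 plus curdlan replicate 1 (0.0898) or 2 (0.0995). Its size lay between -0.74 and -0.64 in these fits. Ppbp moved with Tph1, at 12.06 and 12.05 on the R406 plus curdlan arrays, 13.39 and 13.37 on the curdlan arrays and 12.59 and 12.55 on the control arrays. It rose by 0.81 ± 0.0443 with curdlan (adjusted p = 0.00503) and fell by 1.32 ± 0.0443 under R406 (adjusted p = 0.000584), where it also lay below control, at -0.51 ± 0.0443 (adjusted p = 0.015). Without any 1 of the 6 arrays its fall against curdlan was called, its rise was called in 2 of 6 fits (highest adjusted p = 0.065) and its difference from control in 0 of 6 (highest adjusted p = 0.161). Pf4, the other platelet chemokine gene, had changes of 0.13 with curdlan (adjusted p = 0.342) and -0.12 under R406 (adjusted p = 0.247). Gp1ba, a platelet glycoprotein gene, had differences of the opposite sign, -0.080 with curdlan (adjusted p = 0.524) and 0.21 under R406 (adjusted p = 0.0659), and those of Gp9 were 0.036 and -0.069 (adjusted p = 0.927 and 0.772). The platelet markers thus did not move as a set, and of the 4 only Ppbp was called. The mean signal of the 4 platelet markers was 10.15 to 10.23 on R406 plus curdlan arrays, 10.51 on both curdlan arrays and 10.27 to 10.30 on control arrays. Most of the difference in this mean comes from Ppbp, whose part in the Tph1 result was not tested.

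**Figure D1:**
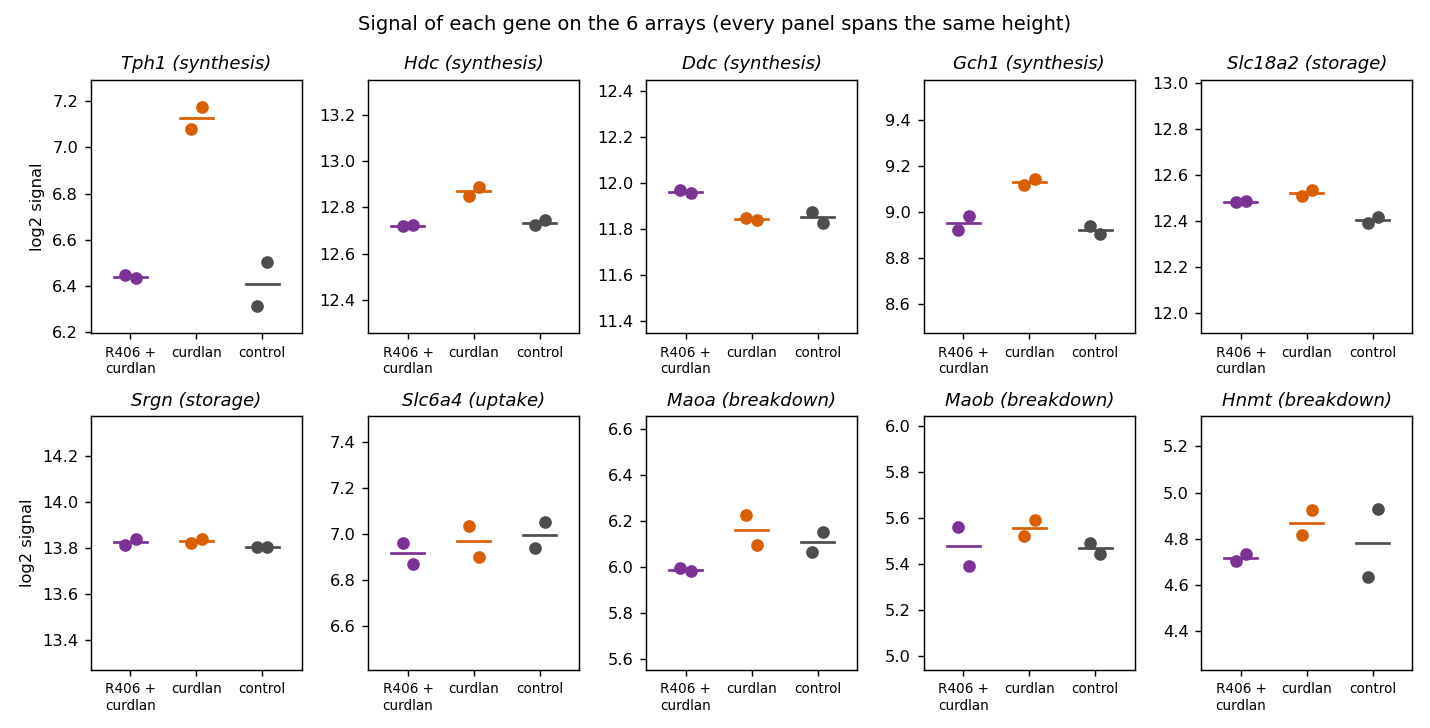
Log2 signal of the 10 genes, 1 panel per gene, with 1 point per array and a line at the group mean, for R406 plus curdlan, curdlan and control. Every panel spans the same height on the log2 scale. Tph1 stands out, with curdlan arrays at 7.08 and 7.18 above the other 4 arrays, while Srgn varies by 0.038 over all 6 arrays.

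The promoter of Tph1 is shown because this gene alone passed the test. It lies on the minus strand of chromosome 1 of the rat assembly GRCr8, with the gene at chr1:106293695-106314628 and the window at chr1:106314579-106314878, from 250 bases before to 50 bases after the RefSeq start. Capitals mark matches on either strand to 5 short motifs.
Tph1: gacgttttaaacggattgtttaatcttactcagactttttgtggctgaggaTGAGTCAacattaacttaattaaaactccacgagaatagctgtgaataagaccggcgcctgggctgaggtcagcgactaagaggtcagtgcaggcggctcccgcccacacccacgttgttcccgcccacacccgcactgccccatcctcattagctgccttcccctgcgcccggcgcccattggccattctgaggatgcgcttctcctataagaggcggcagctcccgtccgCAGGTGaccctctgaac
The match at position -199 from the start is to the AP-1 motif TGANTCA, which 7.33% of all 33469 promoter windows in the RefSeq table hold. The match at position 34 after the start is to the E-box CANNTG, found in 72.1% of windows. There was no match to the NFAT core GGAAA (62.7% of windows), to GATAA of the GATA factors (26.5%) or to TGACG, part of the cAMP response element (21.2%). None of these motifs overlapped another in this window. Of the 10 genes 9 had a window in the table, all but Slc6a4, and the AP-1 motif occurred in that of Tph1 and in 1 of the 3 windows that the table holds for Ddc. A match describes the letters only and shows no binding.

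Among the other synthesis genes, Hdc and Gch1 were, like Tph1, highest on both curdlan arrays, with smaller differences that did not pass the test. Hdc (probe set 10849522, chr3:134300628-134318704) encodes histidine decarboxylase, the enzyme that makes histamine. It had 12.72 and 12.72 on R406 plus curdlan arrays, 12.85 and 12.89 on curdlan arrays, and 12.72 and 12.74 on control arrays. The curdlan arrays did not overlap either other group. The difference was 0.14 ± 0.0449 with curdlan (adjusted p = 0.264) and -0.15 ± 0.0449 under R406 (1.11-fold lower, adjusted p = 0.136). In R406 plus curdlan against control it was -0.012 ± 0.0449 (adjusted p = 0.911).

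Gch1 (probe set 10782919, chr15:22884006-22917412) encodes GTP cyclohydrolase, which starts the synthesis of the tetrahydrobiopterin that Tph1 needs. Its signal was 8.92 and 8.98 on R406 plus curdlan arrays, 9.12 and 9.14 on curdlan arrays, and 8.94 and 8.91 on control arrays. Again the curdlan arrays lay above all others. The difference was 0.21 ± 0.0479 with curdlan (1.15-fold, 95% interval 1.06 to 1.26, adjusted p = 0.141) and -0.18 ± 0.0479 under R406 (adjusted p = 0.109). The smallest change of any probe set called was 0.32 log2 units with curdlan and 0.22 under R406, so the differences of Hdc and Gch1 were smaller than any called.

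Hdc and Gch1 were called under few of the other settings, all of which are given here. With a variance that could follow the signal, Hdc passed in both comparisons (adjusted p = 0.0183 with curdlan and 0.00608 under R406) and Gch1 in neither. Among probe sets above the median signal alone, Gch1 passed in both (0.0287 with curdlan and 0.0241 under R406) and Hdc passed under R406 (0.0299). The size of these differences was the same in each of these fits. Both fits also gave more calls over all their probe sets, 1557 and 1572 with curdlan, against 465 in the fit used above. Under R406 against curdlan they gave 3767 and 3717, against 2118. The fit above the median signal held 14607 probe sets.

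Ddc (probe set 10778486, chr14:90592304-90682830), the decarboxylase that completes serotonin and also makes dopamine, showed a different order. It had 11.97 and 11.96 on R406 plus curdlan arrays, 11.85 and 11.84 on curdlan arrays, and 11.87 and 11.83 on control arrays. Curdlan and control overlapped, at a difference of -0.0071 ± 0.0449 (95% interval -0.12 to 0.11, adjusted p = 0.969), while both R406 plus curdlan arrays were the highest of the 6. The difference under R406 was 0.12 ± 0.0449 against curdlan (adjusted p = 0.212) and 0.11 ± 0.0449 against control (adjusted p = 0.253). With a variance that could follow the signal, the difference of Ddc from curdlan alone passed (adjusted p = 0.0336).

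Signals of the storage genes ranged over 0.14 log2 units for Slc18a2 and 0.038 for Srgn across all 6 arrays. Slc18a2 (probe set 10716436, chr1:268399815-268435229) encodes the vesicular monoamine transporter of the granule membrane. It had 12.48 and 12.49 on R406 plus curdlan arrays, 12.51 and 12.54 on curdlan arrays, and 12.39 and 12.42 on control arrays. The groups did not overlap, with R406 plus curdlan arrays between the other groups. Its difference with curdlan was 0.12 ± 0.044 (adjusted p = 0.323, and 0.0367 with a variance that could follow the signal), and under R406 it was -0.038 ± 0.044 (adjusted p = 0.68). For Srgn (probe set 10833180, chr20:30985508-31022296), the serglycin gene, the 6 signals lay between 13.80 and 13.84. The change was 0.027 ± 0.0436 with curdlan and -0.0041 ± 0.0436 under R406, with 95% intervals of -0.08 to 0.14 and -0.12 to 0.11. Srgn was near the top of the signal range of the arrays, whose highest signals were 14.37 to 14.41, and whether its probes were saturated cannot be read from these values.

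The uptake and breakdown genes had signals below the array medians, and the largest difference between their group means was -0.17 log2 units, for Maoa. Slc6a4 (probe set 10745438, chr10:62322688-62357060), the serotonin transporter of the plasma membrane, had 6.96 and 6.87 on R406 plus curdlan arrays, 7.03 and 6.90 on curdlan arrays, and 6.94 and 7.05 on control arrays. All groups overlapped, and the difference with curdlan was -0.028 ± 0.0738 (95% interval -0.22 to 0.16, adjusted p = 0.917). Maoa (probe set 10936717, chrX:8615239-8681372), the monoamine oxidase that prefers serotonin, had 5.99 and 5.98 on R406 plus curdlan arrays, 6.22 and 6.09 on curdlan arrays, and 6.07 and 6.15 on control arrays. Curdlan and control overlapped, and both R406 plus curdlan arrays were the lowest. The difference under R406 was -0.17 ± 0.0646 against curdlan (adjusted p = 0.214) and -0.12 ± 0.0646 against control (adjusted p = 0.369).

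Maob (probe set 10932211, chrX:8490405-8594065), the neighbouring monoamine oxidase gene on chromosome X, had 5.56 and 5.39 on R406 plus curdlan arrays, 5.52 and 5.59 on curdlan arrays, and 5.49 and 5.45 on control arrays. Hnmt (probe set 10843184, chr3:26978274-27010291), which encodes the enzyme that methylates histamine inside cells, had 4.70 and 4.73 on R406 plus curdlan arrays, 4.82 and 4.92 on curdlan arrays, and 4.63 and 4.93 on control arrays. The control arrays of Hnmt differed by 0.30, more than any of its groups differed from another. With curdlan the change was 0.088 ± 0.072 for Maob (adjusted p = 0.666) and 0.088 ± 0.107 for Hnmt (adjusted p = 0.779). Under R406 it was -0.080 ± 0.072 (adjusted p = 0.587) and -0.15 ± 0.107 (adjusted p = 0.481). Whether transcripts as dim as these were detected at all is not known here, so their intervals describe the probe sets and not necessarily the genes.

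**Figure D2:**
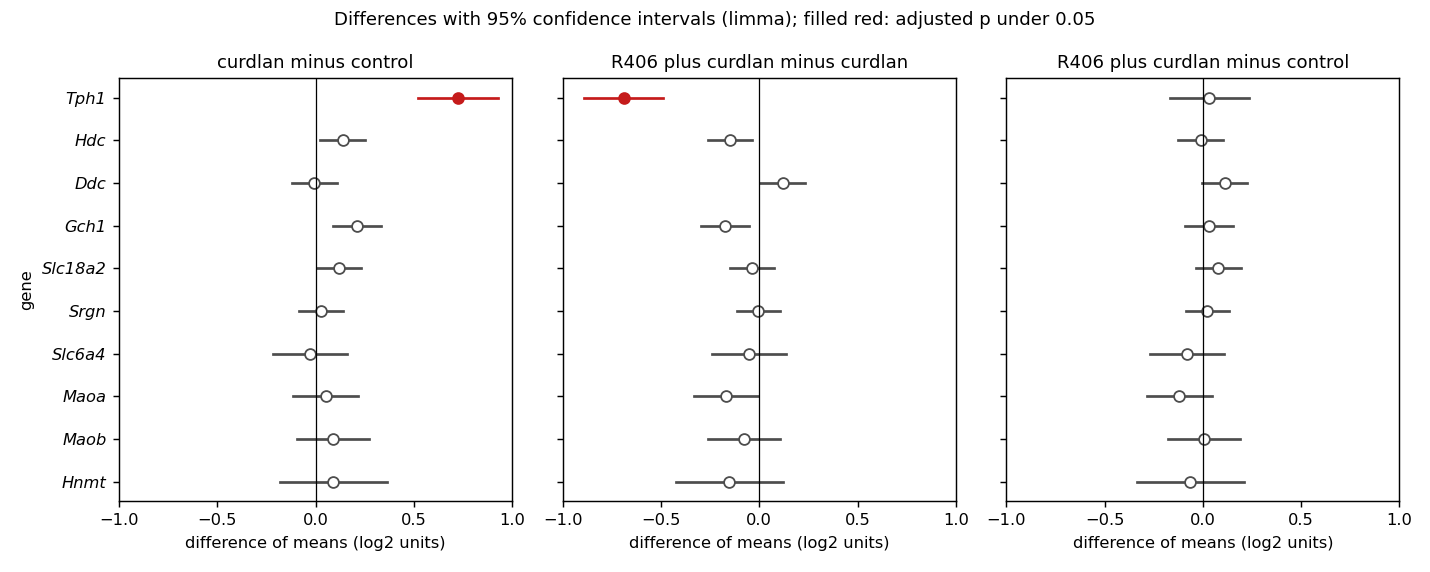
Differences of group means on the log2 scale with 95% confidence intervals from limma, for the 10 genes in the 3 comparisons. Tph1 has the only intervals drawn in red, at 0.72 for curdlan minus control and -0.69 for R406 plus curdlan minus curdlan. In R406 plus curdlan minus control every interval spans 0.

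In all, 1 of the 10 genes rose with curdlan and 0 fell, where 1.59% of all 29214 probe sets were called, 1.04% as higher and 0.551% as lower. Under R406 1 fell against curdlan alone and 0 rose, where 7.25% of all probe sets were called, 4.02% as higher and 3.23% as lower. Between R406 plus curdlan and control 0 of the 10 were called by limma, against 2.23% of all probe sets (1.44% higher, 0.791% lower). An unadjusted limma p under 0.05 was found for 4 of the 10 with curdlan, against 14.42% of all probe sets. Under R406 against curdlan alone it was found for 5, against 22.04%. For R406 plus curdlan against control it was found for 0, against 20.38%. With curdlan 8 of the 10 differences were positive, at a median of 0.088 log2 units against -0.011 over all probe sets. Curdlan and control arrays did not overlap for 6 genes, where 43.1% of all probe sets did not, and all 6 were higher with curdlan, as 19.2% of all probe sets were (23.9% were lower). Under R406 9 of the 10 differences from curdlan alone were negative and 1, that of Ddc, was positive, at a median of -0.11 against -0.0019 over all probe sets. Here 7 genes did not overlap, where 53.3% of all probe sets did not. Of these 1 was higher under R406, against 27.7% of all probe sets, and 6 were lower, against 25.6%. Between R406 plus curdlan and control the arrays of 4 genes did not overlap (53.5% of all probe sets), with Ddc, Slc18a2 and Srgn higher (25.7%) and Maoa lower (27.8%). All probe sets include 13581 without a symbol, so the shares over them are not like for like with named genes. In a fit of the 15310 single-symbol probe sets, 667 were called with curdlan, 2063 under R406 against curdlan and 1090 against control. Of the 10 genes that fit called 1, 1 and 0. The comparisons share arrays, and the counts were not tested as a set.

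**Figure D3:**
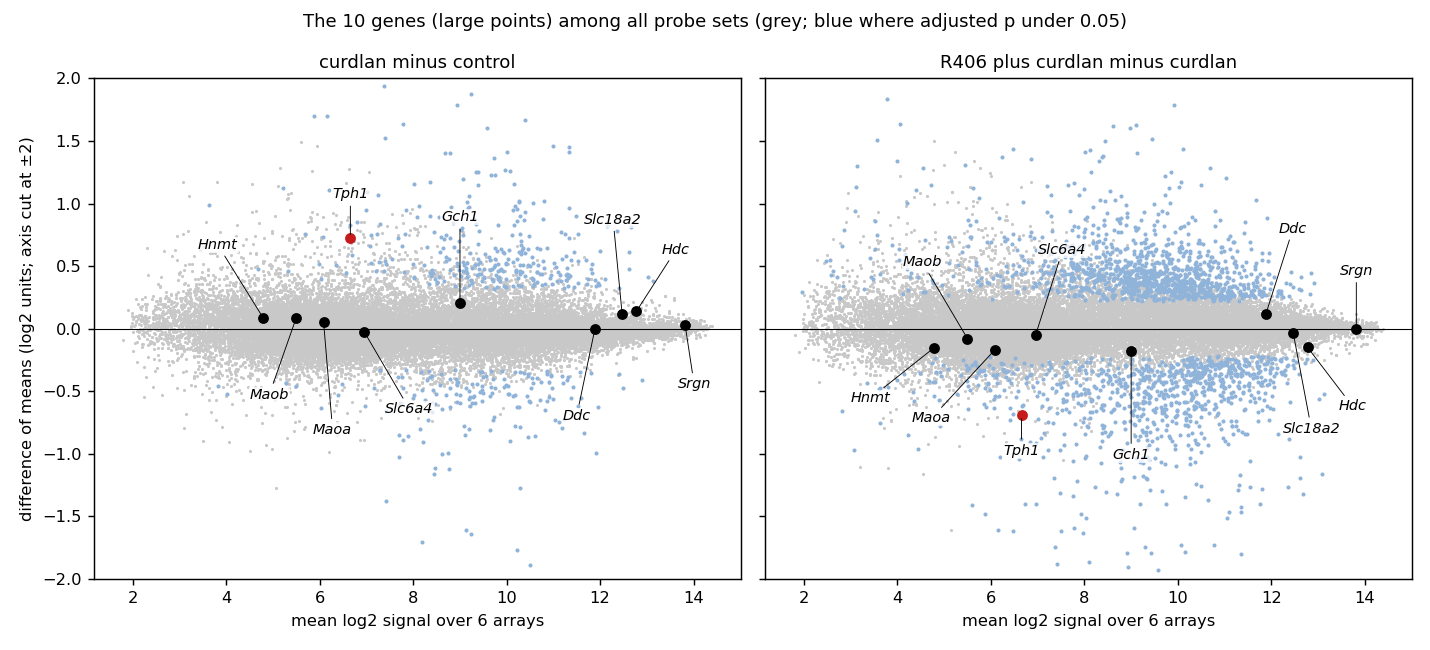
Difference of means on the log2 scale against the mean log2 signal over 6 arrays, for curdlan minus control and R406 plus curdlan minus curdlan, with all probe sets in grey, called ones in blue and the 10 genes as large points. The vertical axis is cut, so that probe sets with larger changes lie outside the plot. Tph1, in red at 0.72 and -0.69, lies away from 0 in both panels, and the other 9 genes were not called.

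The genes whose profile was most like that of Tph1 were Ier5, Lfng and Zbtb1. Likeness was the root mean square distance over the 6 arrays between the signals of 2 genes, after each gene's own mean was subtracted, and it ranked 14505 other genes. The distance was 0.0525 log2 units for Ier5, an immediate early response gene, 0.0652 for Lfng, a glycosyltransferase gene, and 0.0776 for Zbtb1, a zinc finger gene, against a median of 0.353 over all genes. Ier5 had 8.42 and 8.37 on R406 plus curdlan arrays, 9.12 and 9.17 on curdlan arrays, and 8.40 and 8.45 on control arrays. With curdlan these genes rose by 0.72 ± 0.0504, 0.77 ± 0.0555 and 0.75 ± 0.0605 (adjusted p 0.00988, 0.0104 and 0.0146), and under R406 they fell by 0.75, 0.82 and 0.59 (adjusted p 0.00348, 0.00348 and 0.00947). None was called between R406 plus curdlan and control, and without any 1 array none kept its curdlan call (adjusted p 0.0549 to 0.126). The R406 calls of Ier5 and Lfng were kept in all 6 such fits, and that of Zbtb1 was kept in 2, without either control array, and lost in the others (highest adjusted p = 0.0763). Since they were picked for their likeness, these values describe them and test nothing.

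**Figure D4:**
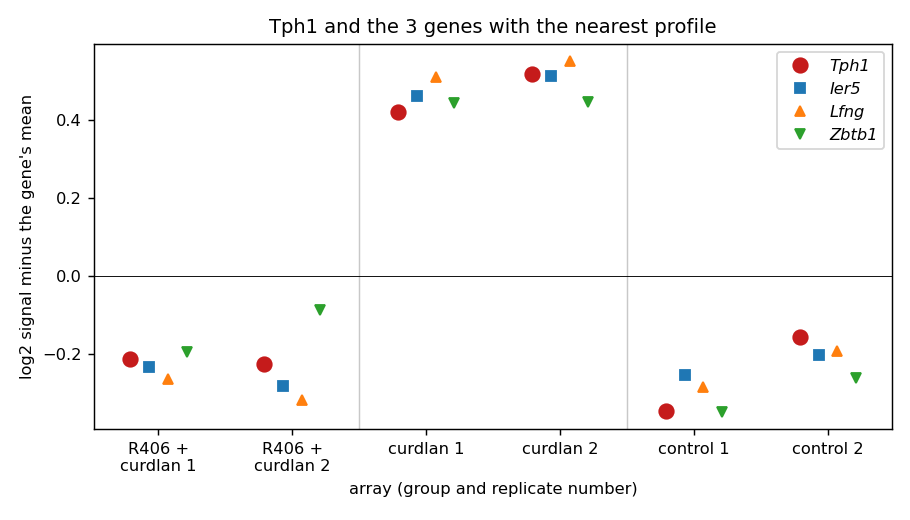
Log2 signal minus each gene's own mean over 6 arrays, for Tph1 and the 3 genes nearest to it by root mean square distance, by array. All 4 genes are highest on both curdlan arrays.

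The genes around the pathway were read from 7 lists, of whose 102 entries 91 were measured. With curdlan 2 rose and 1 fell, which is 3.3% of the 91 against 1.59% of all probe sets. The 3 were all enzymes that build glycosaminoglycan chains such as those of serglycin. That list was the largest, with 24 of the 91 genes, and 21 of the 24 lay above the median signal. In the list of serotonin receptors and further metabolism 4 of 20 did. Under R406 5 of the 91 genes rose and 4 fell against curdlan alone, 9.89% against 7.25%. Against control 1 of the 91 rose and 3 fell, 4.4% against 2.23%. All probe sets include 13581 without a symbol, so these shares are not like for like and show no excess of calls. In a fit of the 15310 single-symbol probe sets alone, 667 were called with curdlan, 2063 under R406 against curdlan and 1090 against control. The list genes were not counted in that fit. The median change of the 91 genes was -0.036 with curdlan and 0.014 under R406.

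Of 24 genes for glycosaminoglycan chains, 2 rose and 1 fell with curdlan, and 2 rose and 3 fell under R406 against curdlan. Between R406 plus curdlan and control 1 was higher and 2 were lower. Hs3st1, a sulfotransferase gene of heparan sulfate, had 11.75 and 11.80 on R406 plus curdlan arrays, 13.05 and 13.03 on curdlan arrays, and 12.27 and 12.27 on control arrays. No groups overlapped. It rose by 0.78 ± 0.0457 with curdlan (adjusted p = 0.00591) and fell by 1.27 ± 0.0457 under R406 (adjusted p = 0.000738), and under R406 it also lay below control, at -0.49 ± 0.0457 (adjusted p = 0.0179). Chsy1, which encodes a polymerase of chondroitin sulfate, had 10.89 and 10.90 on R406 plus curdlan arrays, 11.66 and 11.70 on curdlan arrays, and 10.94 and 10.87 on control arrays. It rose by 0.77 ± 0.0495 with curdlan (adjusted p = 0.00756) and fell by 0.78 ± 0.0495 under R406 (adjusted p = 0.00294).

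Ndst2 went the other way. It encodes an N-deacetylase and N-sulfotransferase that is needed for heparin in mouse mast cells. Its signal was 11.19 and 11.22 on R406 plus curdlan arrays, 10.56 and 10.61 on curdlan arrays, and 11.14 and 11.16 on control arrays, so the curdlan arrays were the lowest. It fell by 0.56 ± 0.0465 with curdlan (adjusted p = 0.0154) and rose by 0.62 ± 0.0465 under R406 (adjusted p = 0.00452). B4galt7, which adds a sugar to the linker between core protein and chain, rose by 0.61 ± 0.0461 under R406 (adjusted p = 0.00452), with a difference of -0.30 with curdlan that was not called (adjusted p = 0.06). It had 9.72 and 9.74 on R406 plus curdlan arrays, 9.11 and 9.13 on curdlan arrays, and 9.39 and 9.45 on control arrays, and it was also higher than control under R406, by 0.31 ± 0.0461 (adjusted p = 0.0463). Without 1 of the 6 arrays in turn the curdlan calls of Chsy1 and Ndst2 were lost in every fit (adjusted p 0.0515 to 0.088 and 0.0789 to 0.125) and that of Hs3st1 was kept without either R406 plus curdlan array and lost in the other 4 (highest adjusted p = 0.0716). The R406 calls of Hs3st1 and Chsy1 were kept in all 6, and those of Ndst2 and B4galt7 were lost without R406 plus curdlan replicate 1 (adjusted p = 0.0561 and 0.0587) or 2 (0.0591 and 0.0598). Against control, the R406 calls of Hs3st1 and B4galt7 were lost without any 1 array (adjusted p 0.0572 to 0.155 and 0.0958 to 0.273). The remaining called gene of this list, B3galt6, named after its values were seen, also encodes an enzyme of the linker. It fell by 0.43 ± 0.0458 under R406 against curdlan (limma adjusted p = 0.00997) and by 0.40 ± 0.0458 against control (adjusted p = 0.0268). Whether its calls are kept with an array left out was not examined.

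Among 20 genes of serotonin receptors and further serotonin and tryptophan metabolism, 1 was called. Htr2a, a serotonin receptor gene, had 8.58 and 8.50 on R406 plus curdlan arrays, 9.68 and 9.74 on curdlan arrays, and 9.47 and 9.54 on control arrays. It fell by 1.17 ± 0.0559 under R406 against curdlan alone (adjusted p = 0.00151, called without any 1 of the 6 arrays) and was 0.97 ± 0.0559 below control (adjusted p = 0.00681). With curdlan its difference was 0.21 ± 0.0559 and was not called (adjusted p = 0.185). The call against control was lost without either control array (adjusted p = 0.0749 and 0.08) or either R406 plus curdlan array (0.087 and 0.0935).

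Of the 4 measured genes of tetrahydrobiopterin synthesis and recycling besides Gch1, 0 were called with curdlan by limma. Pts, the enzyme that follows Gch1 in that synthesis, rose by 0.25 ± 0.0486 under R406 against curdlan alone (adjusted p = 0.0493), with 9.83 and 9.86 on R406 plus curdlan arrays, 9.60 and 9.59 on curdlan arrays, and 9.76 and 9.69 on control arrays. That call was lost without any 1 of the arrays (adjusted p 0.0743 to 0.254). Of 11 genes for the supply of aromatic amino acids, histidine and pyridoxal phosphate, Slc43a2, a transporter gene of large neutral amino acids, rose by 0.48 ± 0.0657 under R406 (10.15 and 10.26 on R406 plus curdlan arrays, 9.75 and 9.69 on curdlan arrays, 9.75 and 9.84 on control arrays, adjusted p = 0.0195, and 0.0823 to 0.126 without either curdlan or either R406 plus curdlan array). Of 17 genes of the vesicular proton pump and its chloride partners, Clcn7, a chloride and proton exchanger gene of lysosomes, rose by 0.48 ± 0.0699 under R406 (adjusted p = 0.023), with 9.97 and 9.97 on R406 plus curdlan arrays, 9.41 and 9.58 on curdlan arrays, and 9.79 and 9.85 on control arrays. Its call was kept only without curdlan replicate 2 (highest adjusted p = 0.144). The lists of histamine breakdown, uptake and receptors, with 10 genes measured, and of catecholamine synthesis and breakdown, with 5, had 0 called members in any of the 3 comparisons (lowest adjusted p = 0.175 and 0.236). In the histamine list, the receptor gene Hrh4 had changes of -0.12 with curdlan and -0.049 under R406, and Hrh1 had 0.20 and -0.035, none of which was called.

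**Figure D5:**
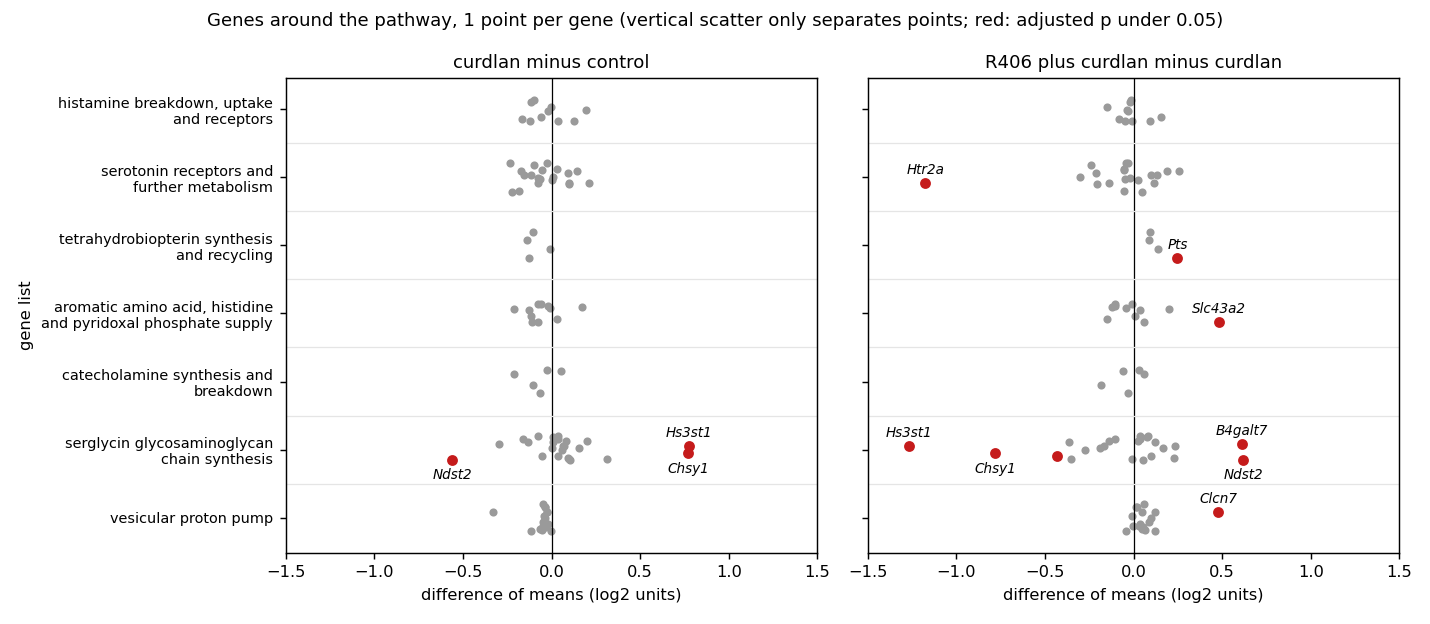
Differences of group means on the log2 scale for 91 genes around the pathway in 7 lists, for curdlan minus control and R406 plus curdlan minus curdlan. Each point is a gene, and red points were called at an adjusted p under 0.05. The called genes of the curdlan panel, Hs3st1, Chsy1 and Ndst2, all lie in the glycosaminoglycan list, the largest, with 24 of the 91 genes.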

How the data were processed

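RNA of 6 RBL-2H3 samples was read on Affymetrix rat whole-transcript arrays. Per the submitters' processing notes, the authors used Affymetrix Expression Console, and the deposited values are log2 signals. Its version, its background correction and summarisation and the genome build were not given in the sources used here. No other column of the table was present, and the number of arrays limits the precision.

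Groups and replicate numbers come from the sample titles. The signals were not normalized again. A linear model with 3 group means was fitted to all 29214 probe sets with limma 3.58.1 in R 4.3.3 (lmFit and eBayes, 3 residual and 2.16 prior degrees of freedom), and p-values were adjusted by Benjamini-Hochberg over all probe sets. The script was tested on simulated data. Of the probe sets, 15310 had 1 symbol in the platform annotation, 323 had several and 13581 had none. A gene was read from its single-symbol probe set with the highest mean. Positions and promoters are those of RefSeq on GRCr8. Positions are of the genes, not of the probes.

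The 10 genes and the lists were chosen with earlier results of these data known. Besides the 10 genes, the text names the genes called in each pathway list, at most the 4 with the largest change per list, and the 3 genes nearest in profile to each called gene. Hrh1, Hrh4, B3galt6 and the marker genes were named after their values were seen. Alternatives covered the arrays in the fit, normalization, filters, the choice of probe set, the variance model, the threshold, a replicate block and each array left out.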

Additional observations from a re-analysis of the deposited data

How the results depend on the processing

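With 2 arrays per group the counts of calls depended strongly on the settings, while the sizes of the differences moved little. Of 435 recomputed differences of the 10 genes, 400 kept their direction and side of the threshold, 12 lost the call, 7 gained one and 16 turned in sign. For the other named genes, which were chosen after seeing the data, the numbers were 422, 104, 12 and 2 of 540 under the same alternatives. B3galt6, Hrh1, Hrh4 and the marker genes other than Ppbp were not among these. The cause of these shifts was not tested.

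Only 5 of the 10 genes were among the probe sets above the median signal and could be called in that fit. With curdlan, 1 of the 10 genes was called. The count was 0 with only the 4 arrays of the comparison, 0 at an adjusted p under 0.01, 0 to 0 with each array left out in turn, and 3 with an intensity trend in the variance. Under R406 against curdlan, 1 was called, against 2 among probe sets above the median signal (where Tph1 was not tested), 3 with an intensity trend, 0 at an adjusted p under 0.01, and 0 to 1 with each array left out. Between R406 plus curdlan and control the count was 0 throughout.

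Counts here were out of 29214 probe sets, except 14607 above the median signal, 15310 with single-symbol probe sets and 14506 with probe sets averaged. Over all probe sets, 465 were called with curdlan. The count was 68 with only the 4 arrays, 1572 above the median signal, 1557 with an intensity trend, 78 and 1016 at adjusted p under 0.01 and under 0.1, and 32 to 68 with each array left out. Under R406 against curdlan 2118 were called, against 1232, 3717, 3767, 561 and 3430 in the same order, and 210 to 1232 with each array left out. Between R406 plus curdlan and control 652 were called, against 182, 2278, 2341, 66 and 1780, then 1090 over single-symbol probe sets, 1063 with the probe sets of a gene averaged, and 15 to 182 with each array left out.

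The replicate numbers are shared between groups, but no label says what a number stands for, so they were not taken to pair the samples. The deviations of same-numbered arrays correlated at -0.11 between control and curdlan and -0.0045 between control and R406 plus curdlan. Between curdlan and R406 plus curdlan they correlated at 0.11. These correlations do not decide whether the samples were paired. With the replicate block 0 of the 10 genes were called with curdlan (Tph1 adjusted p = 0.0782) and 1 under R406 against curdlan. Over all probe sets the block gave 102 calls with curdlan, 1129 under R406 against curdlan and 62 between R406 plus curdlan and control. A block with the control and curdlan numbers crossed, chosen after seeing the data, gave 0 of the 10 genes and 16 probe sets with curdlan.

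Signs turned only for differences that were not called. With arrays centred on their median, Srgn was at 0.016 under R406 against curdlan, and Hdc and Chsy1 were at 0.013 and 0.012 between R406 plus curdlan and control. With quantile normalization Gch1 was at -0.021 there. With each array left out in turn, the other sign changes fell in these ranges. With curdlan, Ddc lay between -0.029 and 0.015, Slc6a4 between -0.093 and 0.038, Maoa between -0.015 and 0.12 and Hnmt between -0.059 and 0.24. Under R406 against curdlan, Srgn lay between -0.017 and 0.0091, Slc6a4 between -0.12 and 0.014 and Maob between -0.16 and 0.0040. Between R406 plus curdlan and control, Tph1 lay between -0.063 and 0.13, Maob between -0.076 and 0.092, Hnmt between -0.21 and 0.083 and Chsy1 between -0.047 and 0.022.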
